A study of Mus musculus with 71 samples.

Results

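Whole small intestine was compared with isolated small intestinal epithelium of wild-type (WT) mice, to describe the muscle, stromal, vascular, neural and immune transcripts of the intestinal wall. All libraries labelled as WT small intestine tissue (n = 7) and all libraries labelled as WT intestinal epithelial cells (IECs) of the duodenum (n = 3), jejunum (n = 3) and ileum (n = 2) were taken, which made 15 of the 71 samples of the series. No measured value was used to choose them. The series compared Btnl2-KO with WT mice in gut tissue, IECs and intraepithelial lymphocytes. Both groups used here were C57BL/6 mice of WT genotype with no treatment in their labels, and the methods describe WT animals as female littermates of the knockouts, bred from heterozygous parents and housed together. The IECs came from mice labelled 7 wk, whereas the tissue libraries carry the word YNG and no age in weeks. The labels do not say from which stretch of small intestine the tissue was cut, and they do not say whether IEC libraries of different segments share a mouse. IECs had been released from pieces of gut with EDTA and shaking and collected from the upper layer of a Percoll density gradient, a step after which some intraepithelial lymphocytes can remain with the epithelium. The tissue and the IEC libraries stand in separate tables whose column names carry different second numbers, of unstated meaning, so the kind of sample, the age label and the batch cannot be told apart in any comparison given here.

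The wall of the small intestine consists of an epithelium resting on a lamina propria with fibroblasts, vessels and immune cells, followed by a submucosa and layers of smooth muscle with the enteric nervous system between them. Fibroblasts around the crypts secrete Wnt ligands, R-spondins and antagonists of bone morphogenetic proteins (BMPs) that keep stem cells dividing, while fibroblasts of the villus secrete BMPs that favour differentiation. The epithelium in turn releases hedgehog proteins, which are received by the mesenchyme below it.

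The tables held estimated read counts for 24475 Entrez gene identifiers. Total counts ranged from 15840653 to 19359450 in tissue (median 17787046) and from 19956412 to 29153075 in IECs (median 24702008). At least 10 counts were present for 14764 to 15102 genes in a tissue library and for 12100 to 12895 genes in an IEC library. A single identifier without a symbol, 100861531, took 1.07 to 1.98% of the counts in tissue and 3.35 to 9.18% in IECs, and the 13 protein-coding genes of the mitochondrial genome took 6.71 to 12.5% and 12.3 to 39.1%. Levels are given as CPM, read counts set to a common library size that was scaled by the trimmed mean of M-values (TMM), and are not divided by gene length. With this scaling the median log2 fold change of all 14508 genes tested was -0.04, against 0.67 when libraries were scaled to their total counts and 0.44 when they were scaled to a list of pan-epithelial genes, so small fold changes depend on the scaling. All adjusted p-values are from edgeR's quasi-likelihood test with Benjamini-Hochberg adjustment over all genes tested, and errors of log2 fold changes are standard errors. The labels do not state that the libraries came from separate mice, in which case p-values would measure only the spread between these samples.

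Some libraries stood apart from the others of their group. Among the tissue libraries, 964950 had the highest level of the proximal segment list, 964946 had the highest levels of the tuft cell, mast cell, innate lymphoid and eosinophil lists, and 964952 was second to 964946 in the tuft cell list and second to 964950 in Gata4. Among the IEC libraries, the ileal library 1003488 carried the most wall transcripts. Their values are given beside the results they touch, and results without the 3 tissue libraries are marked as such.

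Tissue differed from IECs in most genes tested. At an adjusted p below 0.05 and a fold change above 1.5, 4713 genes were higher in tissue, 32.5% of those tested, and 3854 were lower, 26.6%. Genes with a fold change above 8 lay mainly on one side, with 1973 higher in tissue (13.6%) and 52 lower (0.358%). Against the IECs of each of the 3 segments taken separately, 3700 genes (25.5%) were higher and 2634 (18.2%) were lower. Scaling to total counts gave 7582 genes higher and 865 lower. Because these are bulk samples, fewer cells of a type and less RNA per cell cannot be told apart in any of these values.

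The lists for muscle, stroma, vessels and the nervous system together held 155 genes, of which 146 passed the filter on low counts. Of these, 138 (94.5%) were called higher in tissue, none was called lower and 8 were not called, beside the 32.5% of all genes called higher. A fold change above 8 was found for 121 of them (82.9%, against 13.6% of all genes). For 134 of them every tissue library lay above every IEC library, as was so for 3617 of all 14508 genes tested. Their median log2 fold change was 7.76, or 7.6 with genes at 0 in all IECs set to their lower bound, beside a median of -0.04 over all genes. The filter asked for 10 counts in 7 libraries, so a gene seen in tissue alone could pass it, and 18 of the 146 had no count in any IEC library. The genes not called were Vcl, Ldb3, Chrm3, Fbln1, Bmp7, Il33, Prox1 and Tac1.

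**Figure D1:**
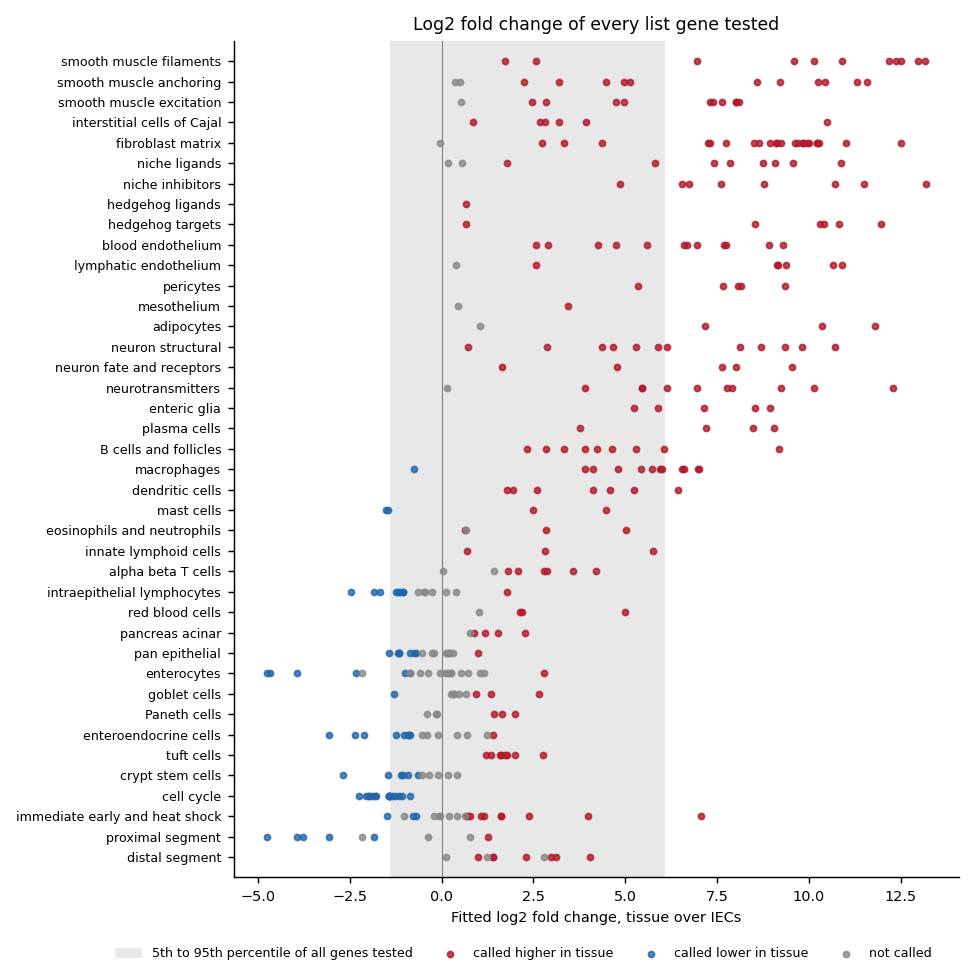
Fitted log2 fold change of tissue over IECs (x axis) for every gene tested in each of the 40 lists (y axis), coloured by call, with the 5th to 95th percentile of all genes tested in grey. Of the 146 muscle, stromal, vascular and neural genes tested, 138 were called higher and Fbln1 alone has a value below 0 (-0.04), while the cell cycle list lies wholly to the left.

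**Figure D2:**
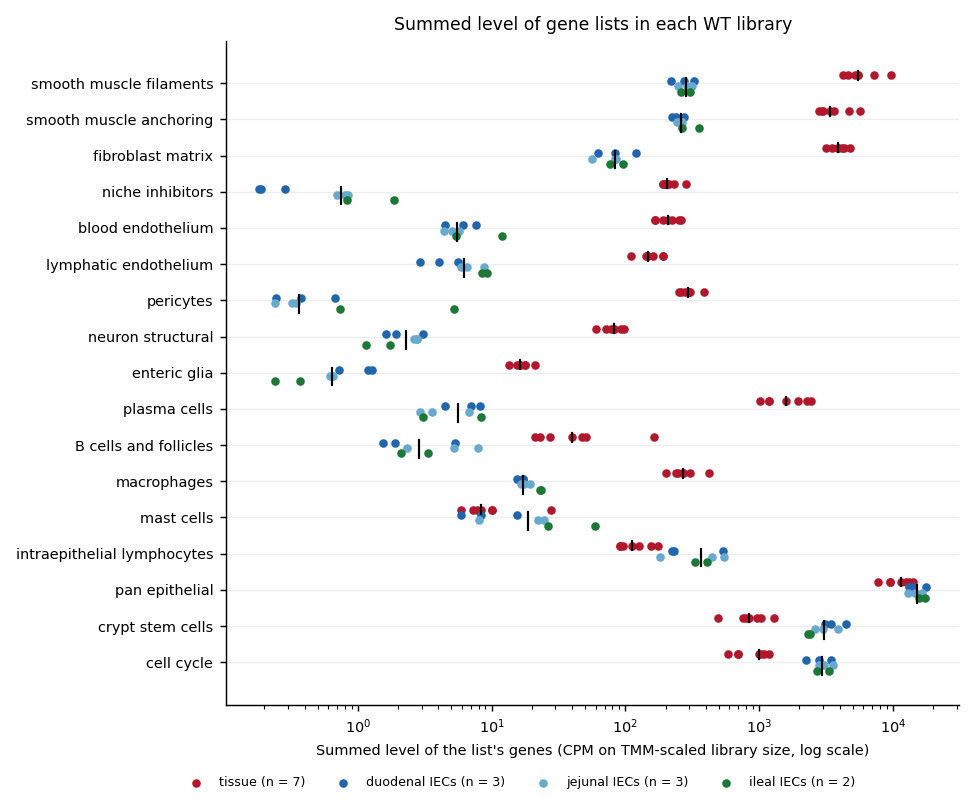
Summed level of each list's genes (x axis, CPM, log scale) in each library, with 7 tissue libraries in red and 8 IEC libraries in blue and green, and black bars at the group medians. The sums of the muscle, fibroblast, vascular, neural and plasma cell lists do not overlap between tissue and IECs, and those of intraepithelial lymphocytes, crypt stem cells and cell cycle lie lower in tissue.

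Smooth muscle contracts through a myosin and actin apparatus that is regulated by calmodulin and anchored to dense plaques by desmin and filamins. All 11 contractile filament genes were higher in tissue (median log2 fold change 10.89), as were 11 of 13 genes of anchoring and 10 of 11 genes of excitation and calcium handling. Summed levels of the filament list were 4240 to 9611 CPM in tissue (median 5447) and 218 to 329 CPM in IECs (median 282). Myh11 (Entrez 17880), the heavy chain of smooth muscle myosin, ranged from 1197 to 1976 CPM in tissue (median 1525) and from 0 to 1.35 CPM in IECs (median 0.141), a log2 fold change of 12.36 ± 0.58 (adjusted p = 7.22e-12). Acta2, the vascular and visceral smooth muscle actin, ranged from 647 to 1386 CPM (median 851) against 0 to 0.769 CPM (median 0.132), 12.17 ± 0.49 on the log2 scale (adjusted p = 1.21e-12). Actg2, the enteric smooth muscle actin, lay between 257 and 1454 CPM (median 387) in tissue and between 0 and 0.187 CPM in IECs (median 0.0859), 12.51 ± 0.56 on the log2 scale (adjusted p = 4.08e-12). For each of these 3 genes every tissue library lay above every IEC library, and the highest Actg2 value, in library 964946, was 1454 CPM against 694 CPM in the next. Without the ileal IEC library 1003488, log2 fold changes of Myh11 and Acta2 were 13.40 and 13.03. Cnn1, the calponin that restrains actomyosin, was at 123 to 480 CPM in tissue (median 177) and had 3 counts in all 8 IEC libraries together, a ratio of the group levels of 11504 with a 95% counting interval of 3937 to 55785.

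Other filament genes are shared between muscle and epithelium, and their differences were smaller. Tpm1, a tropomyosin that lies along actin in many cell types, was at 649 to 1276 CPM in tissue (median 790) and 196 to 312 CPM in IECs (median 257), with a log2 fold change of 1.73 ± 0.15 (adjusted p = 1.42e-08). Mylk, the kinase of the myosin light chain, was at 980 to 1446 CPM (median 1098) against 187 to 275 CPM (median 200), 2.47 ± 0.13 on the log2 scale (adjusted p = 3.42e-11). Neither overlapped between the groups. Vcl (vinculin) and Ldb3, which anchor actin filaments, were at 125 to 170 against 96.9 to 138 CPM and at 38.3 to 71.3 against 37.1 to 48.7 CPM. Their log2 fold changes were 0.38 ± 0.10 (adjusted p = 0.00322) and 0.49 ± 0.14 (adjusted p = 0.00346), the groups overlapped, and the fold change was below 1.5, although both passed it when libraries were scaled to their upper quartile (0.66 and 0.77), total counts (1.06 and 1.19) or pan-epithelial genes (0.86 and 0.94).

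Des (desmin) ranged from 364 to 1584 CPM in tissue (median 513) and was at 0 in 5 of 8 IEC libraries, with 8.89 CPM in the highest. Its log2 fold change was 9.21 ± 1.29 (adjusted p = 9.29e-06), and 15.04 without the ileal library 1003488. Flnc (a filamin of muscle), Jph2 (a junctophilin that ties the plasma membrane to calcium stores), Chrm2 (the muscarinic receptor of smooth muscle) and Myocd (the coactivator that turns on smooth muscle genes) were each at 0 in all IEC libraries but 1003488. Their log2 fold changes lay between 7.39 ± 0.82 (adjusted p = 6.73e-07) for Jph2 and 8.60 ± 0.83 (adjusted p = 1.35e-07) for Flnc. Casq2, a calcium-binding protein of the sarcoplasmic reticulum, was at 10.6 to 20.6 CPM in tissue and at 0 in 6 IEC libraries, with 4.18 CPM in the highest (4.75 ± 0.96, adjusted p = 0.000345, and 10.14 without 1003488). Chrm3, another muscarinic receptor, was not called, at 2.29 to 10.6 CPM against 2.06 to 3.68 CPM (0.54 ± 0.28, adjusted p = 0.0982).

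Interstitial cells of Cajal are the pacemaker cells of gut muscle, and all 6 of their genes tested were higher in tissue. Ano1, the chloride channel of the pacemaker current, was at 23.2 to 43.5 CPM in tissue (median 31.9) and 2.83 to 6.40 CPM in IECs (median 4.10), a log2 fold change of 2.81 ± 0.20 (adjusted p = 1.27e-09). Etv1, a transcription factor of these cells, was at 6.80 to 16.9 CPM against 0.375 to 1.32 CPM (3.92 ± 0.25, adjusted p = 2.91e-10). Kit, their receptor tyrosine kinase, which other gut cells also express, was at 33.3 to 91.6 CPM (median 57.8) against 18.6 to 54.7 CPM (median 30.7). The Kit values of the groups overlapped, and its log2 fold change of 0.84 ± 0.24 (adjusted p = 0.00489) was 0.22 against ileal IECs alone, where it did not pass the test (adjusted p = 0.498). Hand1, a transcription factor of gut muscle that was kept in this list, had no count in any IEC library and was at least 447-fold higher in tissue, with the floor set at 3 counts over the 8 IEC libraries, or 0.0188 CPM.

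The CArG box is the site of serum response factor, through which smooth muscle genes are switched on together. An exact pattern of 10 letters (CC, then A or T alone, then GG) was searched for on both strands in the 250 bases before each gene's start. The RefSeq promoters of GRCm38.p6 were used, which held 33 of the 41 muscle genes. The pattern was present in 4 of the 43 promoters of muscle genes (9.30%) and in 1.47% of all 32851 promoters. Matches stood in 0 of 30 promoters of stromal genes, 2 of 30 of neural genes (6.67%) and 4 of 79 of immune genes (5.06%). No other motif was searched. The 3 muscle genes with a match are shown with the box in capitals because they include both anchoring genes that were not called higher and one filament gene that was, so that a box stood before genes of both kinds.
Myl9 (chr2:156775214-156775463, GRCm38.p6, plus strand, box 161 bases before the start): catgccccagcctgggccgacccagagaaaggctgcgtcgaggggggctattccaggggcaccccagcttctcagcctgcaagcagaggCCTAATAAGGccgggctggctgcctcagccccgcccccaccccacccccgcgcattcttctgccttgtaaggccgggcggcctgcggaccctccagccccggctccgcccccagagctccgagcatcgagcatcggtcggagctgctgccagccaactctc
Vcl (chr14:20929148-20929397, GRCm38.p6, plus strand, box 227 bases before the start): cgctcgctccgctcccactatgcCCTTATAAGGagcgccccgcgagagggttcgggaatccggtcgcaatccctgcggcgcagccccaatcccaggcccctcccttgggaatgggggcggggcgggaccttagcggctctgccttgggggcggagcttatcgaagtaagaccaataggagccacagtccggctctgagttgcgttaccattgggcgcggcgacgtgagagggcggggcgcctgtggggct
Ldb3 (chr14:34588608-34588857, GRCm38.p6, minus strand, box 109 bases before the start): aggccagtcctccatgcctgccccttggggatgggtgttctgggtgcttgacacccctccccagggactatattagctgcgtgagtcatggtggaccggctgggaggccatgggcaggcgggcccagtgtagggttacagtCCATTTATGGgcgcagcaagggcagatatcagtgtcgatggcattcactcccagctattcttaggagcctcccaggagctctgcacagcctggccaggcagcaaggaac

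Myl9 (Entrez 98932), the regulatory light chain of smooth muscle myosin, was at 337 to 675 CPM in tissue (median 406) and 0.0693 to 0.577 CPM in IECs (median 0.163), a log2 fold change of 10.89 ± 0.34 (adjusted p = 6.56e-14). A match is a description of these letters, and the absence of one says only that the exact pattern is not in this window. Boxes that differ from the pattern were not counted.

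Fibroblasts lay down the collagens and proteoglycans of the wall, and 23 of 24 fibroblast and matrix genes tested were higher in tissue, with a median log2 fold change of 9.18. Summed levels of the list were 3161 to 4787 CPM in tissue (median 3918) and 56.5 to 121 CPM in IECs (median 84.2). Col1a1, a chain of type I collagen, was at 194 to 317 CPM in tissue (median 223) and 0 to 1.11 CPM in IECs (median 0.0618), a log2 fold change of 10.28 ± 0.58 (adjusted p = 1.21e-10). Col3a1, which forms type III collagen, was at 493 to 806 CPM (median 619) against 0.0612 to 2.07 CPM (median 0.299), 10.22 ± 0.57 on the log2 scale (adjusted p = 8.81e-11). Pdgfra, the receptor that marks fibroblasts and the telocytes beneath the epithelium, was at 74.3 to 104 CPM (median 93.4) against 0 to 0.288 CPM (median 0.0653), 9.85 ± 0.28 (adjusted p = 2.77e-14). None of these overlapped between tissue and IECs, and without the ileal library 1003488 Col1a1 and Col3a1 were at 12.06 and 11.03.

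Adamdec1, a metalloprotease secreted by fibroblasts and macrophages of the lamina propria, was at 427 to 879 CPM in tissue and 0.288 to 1.30 CPM in IECs (9.95 ± 0.34, adjusted p = 2.04e-13). Tnc, the matrix glycoprotein tenascin C, was at 133 to 226 CPM in tissue and at 0 in 4 of 8 IEC libraries, 12.51 ± 0.28 on the log2 scale (adjusted p = 5.11e-15). The receptor Pdgfrb was at 36.9 to 46.8 CPM against 1.96 to 9.66 CPM (3.34 ± 0.33, adjusted p = 7.50e-08), so that its IEC level was not near 0. Fbln1 was the one gene of the list that was not called. This fibulin of the matrix was at 51.8 to 93.6 CPM in tissue (median 71.2) and 50.7 to 114 CPM in IECs (median 68.6), and its log2 fold change of -0.04 ± 0.17 (adjusted p = 0.827) became 0.68 with total-count scaling.

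The signals that fibroblasts send to the crypt were measured in 10 ligand genes, of which 8 were higher in tissue, and 8 inhibitor genes, all of which were higher. Medians of the log2 fold change were 7.64 for ligands (6.81 with bounds) and 8.19 for inhibitors (7.75 with bounds). Wnt2b, a Wnt ligand of crypt fibroblasts, was at 9.14 to 19.5 CPM in tissue (median 17.7) and 0 to 0.0961 CPM in IECs (median 0.0202), a log2 fold change of 8.74 ± 0.36 (adjusted p = 1.56e-12). Wnt5a was at 11 to 16.9 CPM (median 14.9) against 0.144 to 0.432 CPM (median 0.216), 5.81 ± 0.21 (adjusted p = 2.90e-13). The R-spondins prolong Wnt signalling at the stem cell. Rspo3 was at 5.58 to 8.34 CPM in tissue and had 1 count in all IEC libraries, a ratio of 1038 with a 95% counting interval of 186 to 41008. Rspo2 was at 0.744 to 2.22 CPM and had no count in IECs, at least 73.3-fold higher in tissue.

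Of the BMPs, Bmp4 was at 23.3 to 32.6 CPM in tissue (median 28.7) and at 0 in 5 of 8 IEC libraries, with a log2 fold change of 9.57 ± 0.36 (adjusted p = 6.10e-13). Bmp5 was at 16.6 to 28.1 CPM (median 23.2) and had 1 count in IECs (ratio 3652, 95% counting interval 655 to 144233). Both were measured almost only in tissue, whereas Bmp2 and Bmp7 were measured in both kinds of sample. Bmp2 was at 15.9 to 31.2 CPM in tissue (median 25) and 3.41 to 16.2 CPM in IECs (median 5.92), 1.77 ± 0.28 on the log2 scale (adjusted p = 2.53e-05), with its highest IEC level close to its lowest tissue level. Bmp7 was at 10.8 to 16.0 CPM (median 13.1) against 6.36 to 11.3 CPM (median 8.96), and its log2 fold change of 0.54 ± 0.15 (adjusted p = 0.00315) stayed below a fold of 1.5 with TMM, and exceeded it with the other scalings tried (0.69 to 1.25) and without any one of tissue libraries 964946 and 964949 or IEC libraries 1003476, 1003480 and 1003491 (0.59 to 0.68). Il33, an alarmin of fibroblasts and epithelium, was at 5.81 to 24.5 CPM (median 8.21) against 4.71 to 17.1 CPM (median 8.28), with a log2 fold change of 0.17 ± 0.34 (adjusted p = 0.668) that was -0.43 without the 3 tissue libraries and 0.89, called higher, with total-count scaling. Nrg1, a growth factor for crypt cells, was at 1.68 to 2.44 CPM in tissue and had 1 count in IECs (ratio 332, 95% counting interval 59.6 to 13119).

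The BMP antagonist Grem1 (Entrez 23892), secreted by fibroblasts below the crypts, had the highest bound of the genes named by size that were at 0 in all IECs. It was at 44.9 to 65.7 CPM in tissue (median 53.6) with no count in any of the 8 IEC libraries, and was at least 2918-fold higher. The antagonists Chrdl1 and Nog were at 6.91 to 11.6 CPM and 0.646 to 1.5 CPM in tissue, had no count in IECs, and were at least 530-fold and at least 61.3-fold higher. Sfrp1, a secreted Wnt antagonist, was at 31.3 to 97.1 CPM in tissue (median 51.5) and 0 to 0.336 CPM in IECs (median 0.102), a log2 fold change of 8.78 ± 0.39 (adjusted p = 4.2e-12). Of these 4 antagonists, Sfrp1 had the highest level in an IEC library.

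Hedgehog target genes were higher in tissue and the ligand was measured in both fractions. Ihh, the ligand made by the epithelium, was at 19.8 to 38.0 CPM in tissue (median 32.4) and 11.7 to 22.9 CPM in IECs (median 19.9), overlapping, with a log2 fold change of 0.67 ± 0.16 (adjusted p = 0.00136). All 6 target genes were higher in tissue, with a median log2 fold change of 10.36 (8.88 with bounds). The transcription factors Gli1 and Gli2, which carry the signal, were at 8.18 to 13.1 CPM and 5.84 to 8.50 CPM in tissue and had no count in IECs, at least 565-fold and at least 395-fold higher. Foxl1, a factor of the telocytes below the epithelium, was at 1.09 to 2.86 CPM in tissue with no count in IECs (at least 113-fold). Hhip, a membrane protein that binds and blocks hedgehog ligands, was at 33.1 to 68.0 CPM in tissue and had 1 count in IECs (ratio 7789, 95% counting interval 1398 to 307635). Foxf1, a mesenchymal transcription factor downstream of the pathway, was at 18.5 to 29.4 CPM and had 2 counts in IECs (ratio 1999, 95% counting interval 553 to 16509). The exception in size was the receptor Ptch1, at 15.7 to 38.9 CPM in tissue (median 30.0) and 13.8 to 23.6 CPM in IECs (median 18.9), with a log2 fold change of 0.65 ± 0.16 (adjusted p = 0.00160). Against ileal IECs alone its value was 0.63 (adjusted p = 0.0556), and without tissue library 964952 it was 0.57, below a fold of 1.5.

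**Figure D3:**
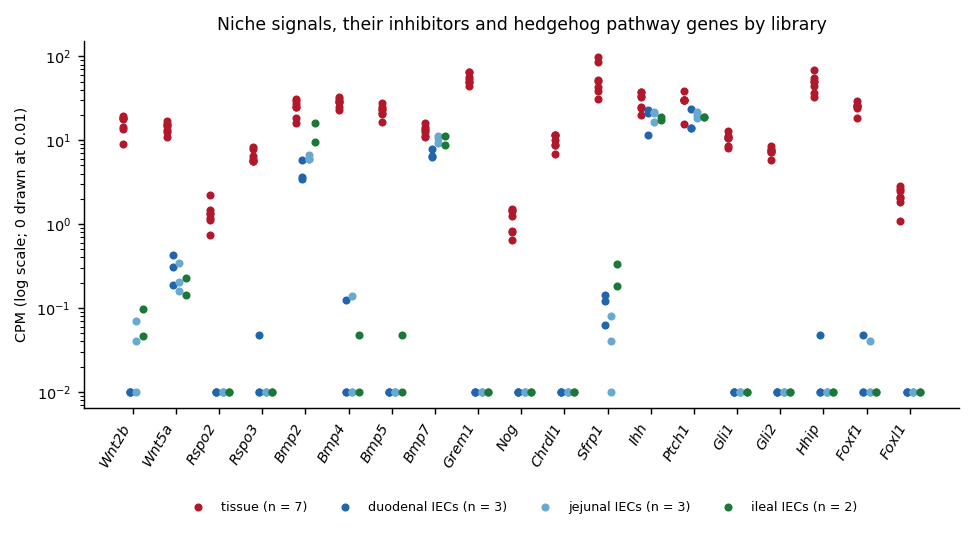
Level of niche ligands, their inhibitors and hedgehog pathway genes (y axis, CPM, log scale, 0 drawn at 0.01) in each library, coloured by group. Grem1, Gli1, Gli2 and Foxl1 are at 0 in all 8 IEC libraries, while the values of Bmp7, Ihh and Ptch1 overlap between tissue and IECs.

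Genes of blood endothelium (12 of 12), lymphatic endothelium (6 of 7) and pericytes (5 of 5) were higher in tissue. Pecam1, an adhesion molecule of endothelial junctions, was at 30.2 to 41.1 CPM in tissue (median 37.5) and 0.336 to 2.74 CPM in IECs (median 1.15), a log2 fold change of 4.74 ± 0.30 (adjusted p = 2.69e-10). Cdh5, the cadherin of these junctions, was at 12.4 to 32.3 CPM (median 20.3) against 0 to 1.01 CPM (median 0.102), 6.68 ± 0.54 (adjusted p = 7.64e-09), and 7.95 without the ileal library 1003488. Plvap, a component of the diaphragms of fenestrated capillaries, was at 26.9 to 65.9 CPM (median 37.8) against 0 to 0.120 CPM (median 0.0653), 9.30 ± 0.32 (adjusted p = 2.33e-13). None of the 3 overlapped between the groups. Rgs5, a regulator of G-protein signalling in pericytes, was at 128 to 229 CPM in tissue, and its 40 counts in IECs reached 1.68 CPM in one library and a median of 0.0230 CPM (9.35 ± 0.70, adjusted p = 5.49e-09, and 11.96 without 1003488).

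Lymphatic vessels carry absorbed fat away from the villus. Flt4, their receptor for vascular endothelial growth factor C, was at 10.2 to 29.9 CPM in tissue (median 18.3) and at 0 in 6 of 8 IEC libraries, a log2 fold change of 9.38 ± 0.45 (adjusted p = 8.97e-12), and 10.62 without 1003488. Mmrn1, a secreted multimerin of lymphatic endothelium, was at 16.6 to 55.1 CPM and had 3 counts in IECs (ratio 2164, 95% counting interval 740 to 10493). Lyve1, their hyaluronan receptor, kept 2.19 to 5.41 CPM in IECs against 15.4 to 26 CPM in tissue (2.56 ± 0.18, adjusted p = 9.27e-10). Prox1, the transcription factor of lymphatic fate, which enteroendocrine cells also express, was at 3.13 to 4.75 CPM in tissue (median 3.56) and 0.673 to 5.33 CPM in IECs (median 2.86). Its groups overlapped, and the log2 fold change of 0.39 ± 0.34 (adjusted p = 0.314) was -0.42 against ileal IECs alone, 1.64 against duodenal IECs (adjusted p = 0.000160), and called higher with total-count (1.08) and pan-epithelial (0.92) scaling.

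Transcripts of serosa and mesenteric fat varied widely between tissue libraries. Of 13 genes of mesothelium and adipocytes, 6 passed the filter and 4 were higher in tissue. Cfd (adipsin), a complement factor secreted by fat cells, ranged from 1.75 to 43.2 CPM in tissue (median 20.6) with no count in IECs, at least 1134-fold higher. Car3, a carbonic anhydrase of fat and muscle, ranged from 1.86 to 83.9 CPM (median 43.1) against 0 to 0.0961 CPM, 10.35 ± 1.0 on the log2 scale (adjusted p = 1.21e-07). The summed level of the adipocyte list was 40.0 to 209 CPM in tissue, and the sum of the mesothelial list overlapped between tissue (2.34 to 17.6 CPM) and IECs (2.20 to 5.91 CPM).

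The enteric nervous system lies within the muscle and submucosa, and 32 of its 33 genes tested were higher in tissue. These were 12 of 12 structural neuronal genes, 5 of 5 fate factors and receptors, 10 of 11 transmitter genes and 5 of 5 glial genes. A further 8 of the 41 neural genes did not pass the filter. Vip (Entrez 22353), the peptide of inhibitory and secretomotor neurons, was at 23.8 to 39.0 CPM in tissue (median 25.7) with no count in IECs, at least 1547-fold higher. Nos1, which makes the relaxing transmitter nitric oxide, was at 8.07 to 14.1 CPM (median 11.3) against 0 to 0.184 CPM (median 0.0199), a log2 fold change of 7.78 ± 0.39 (adjusted p = 1.65e-11), and 8.62 without the ileal library 1003491. The peptide Gal was at 4.38 to 10.8 CPM in tissue with no count in IECs (at least 353-fold). Acetylcholine is the main excitatory transmitter of enteric neurons. Chat, which makes it and which tuft cells also express, was at 0.467 to 3.13 CPM in tissue (median 1.30) and 0 to 0.192 CPM in IECs (median 0.0587), 3.91 ± 0.46 on the log2 scale (adjusted p = 6.78e-07). Slc18a3, which loads it into vesicles, was at 1.11 to 2.07 CPM and had 1 count in IECs (ratio 237, 95% counting interval 42.5 to 9348).

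Tac1, the precursor of substance P, which enteroendocrine cells also make, was the one transmitter gene not called, at 5.91 to 12.5 CPM in tissue (median 9.08) and 4.72 to 13.7 CPM in IECs (median 6.73). Its log2 fold change was 0.15 ± 0.23 (adjusted p = 0.564), -0.43 against ileal and 0.47 against duodenal IECs alone, and it was called higher with total-count (0.83) and pan-epithelial (0.65) scaling. Among structural genes, the intermediate filament Prph was at 7.34 to 12.4 CPM in tissue with no count in IECs (at least 513-fold). Uchl1, a neuronal ubiquitin hydrolase, was at 9.30 to 15.6 CPM (median 11.7) against 0 to 0.159 CPM (8.11 ± 0.40, adjusted p = 1.36e-11, and 9.16 without the jejunal library 1003477), and the RNA-binding protein Elavl4 was at 3.61 to 7.83 CPM against 0 to 0.184 CPM (6.13 ± 0.39, adjusted p = 3.67e-10). Nefm, a neurofilament subunit, had the smallest log2 fold change of the structural genes, at 0.892 to 2.03 CPM against 0.250 to 1.32 CPM, with a log2 fold change of 0.72 ± 0.30 (adjusted p = 0.0433). The Nefm call was lost when any of tissue libraries 964947, 964948 and 964951 or IEC libraries 1003466, 1003477, 1003488 and 1003491 was left out, at adjusted p up to 0.104, and its value was 0.026 in the Btnl2-KO libraries.

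Ret, the receptor on which enteric neurons depend, was at 12.2 to 17.6 CPM (median 15.9) and kept 2.45 to 8.15 CPM in IECs (median 4.63), 1.65 ± 0.24 on the log2 scale (adjusted p = 6.94e-06). Glia accompany the neurons. Their transcription factor Sox10 was at 1.78 to 3.40 CPM and had 2 counts in IECs (ratio 208, 95% counting interval 57.5 to 1716). The filament protein Gfap was at 0.850 to 3.51 CPM with no count in IECs (at least 113-fold), and S100b was at 1.28 to 2.60 CPM against 0 to 0.139 CPM (5.89 ± 0.44, adjusted p = 2.29e-09, and 6.57 without the jejunal library 1003480). None of these glial genes overlapped between tissue and IECs.

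Of 66 immune genes tested, 46 were higher in tissue and 11 were lower, beside 32.5% and 26.6% of all genes. The immune share called lower was thus below that of all genes. The plasma cell list was higher in all 4 genes tested. Jchain, which joins the subunits of secreted immunoglobulin A, was at 1010 to 2404 CPM in tissue (median 1556) and 2.02 to 7.83 CPM in IECs (median 4.23), a log2 fold change of 8.48 ± 0.40 (adjusted p = 8.06e-12). Tnfrsf17, the survival receptor of plasma cells, was at 1.65 to 4.21 CPM in tissue with no count in IECs (at least 166-fold), and Mzb1, a chaperone of antibody assembly, was at 8.30 to 26.1 CPM against 0 to 0.347 CPM (7.19 ± 0.47, adjusted p = 4.51e-10). Immunoglobulin and T cell receptor constant genes of the lists (Igha, Ighm, Igkc, Trbc1, Trbc2, Tcrg-C1 and Tcrg-C4) were not analysed here.

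All 9 B cell and follicle genes tested were higher in tissue. Cd79a, a chain of the B cell receptor complex, was at 5.42 to 31.6 CPM (median 16.5) against 0.0405 to 1.25 CPM (median 0.187), a log2 fold change of 5.30 ± 0.57 (adjusted p = 2.67e-07). The summed B cell list was 164 CPM in 964949 and at most 50.7 CPM in the others. Madcam1, the addressin through which lymphocytes enter the gut, was at 1.43 to 5.04 CPM in tissue with no count in IECs (at least 180-fold).

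Macrophage genes were higher in 11 of 12 cases and dendritic cell genes in 7 of 7. C1qa, a subunit of complement C1q made by resident macrophages, was at 32.0 to 77.3 CPM in tissue (median 48.3) and 0.243 to 0.971 CPM in IECs (median 0.540), a log2 fold change of 6.58 ± 0.28 (adjusted p = 1.93e-12). Csf1r, their growth factor receptor, was at 45.4 to 101 CPM (median 59.8) against 0.480 to 1.80 CPM (median 1.04), 5.93 ± 0.25 (adjusted p = 2.03e-12). Itgax, an integrin of dendritic cells that intraepithelial lymphocytes also carry, and Xcr1, a chemokine receptor of cross-presenting dendritic cells, differed less. Their log2 fold changes were 1.79 ± 0.32 (adjusted p = 7.48e-05) and 1.95 ± 0.25 (adjusted p = 1.77e-06), with no overlap. Cd14, the co-receptor for lipopolysaccharide, was the one macrophage gene lower in tissue, at 5.48 to 10.3 CPM (median 8.58) against 10.1 to 19.9 CPM (median 12.9). The Cd14 difference of -0.74 ± 0.17 (adjusted p = 0.00105) was -0.04 with total-count scaling and no longer passed the test.

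Helper T cell genes were higher in tissue and several cytotoxic genes were lower. Of 8 genes of the αβ T cell list tested, 6 were higher, among them Cd4 at 4.83 to 20.3 CPM (median 11.9) against 0.367 to 3.77 CPM (median 1.5), a log2 fold change of 2.79 ± 0.45 (adjusted p = 2.93e-05). The costimulatory receptor Cd28 was at 3.56 to 8.15 CPM (median 5.78) against a median of 0.236 CPM in IECs, 4.2 ± 0.39 (adjusted p = 4.53e-08). Of 15 genes of intraepithelial lymphocytes tested, 8 were lower in tissue and 1 was higher, with a median of -1.04, and the summed list was 90.5 to 175 CPM in tissue and 182 to 547 CPM in IECs. Gzma, the granule protease granzyme A, was at 20.2 to 46.5 CPM in tissue (median 24.3) and 88.4 to 293 CPM in IECs (median 165), a log2 fold change of -2.47 ± 0.26 (adjusted p = 2.13e-07). Itgae, the integrin that holds these cells to E-cadherin, was at 10.5 to 19.5 CPM (median 13.2) against 15.5 to 52.5 CPM (median 33.3), -1.13 ± 0.24 (adjusted p = 0.000388), and -0.39 and not called with total-count scaling. Cd8a was at 6.24 to 14.5 CPM (median 9.46) against 10.5 to 37.9 CPM (median 21.7), -1.24 ± 0.27 (adjusted p = 0.000614), and -0.49 with that scaling. The gene in the other direction was Cd69, a marker of recent activation and tissue residence, at 1.06 to 3.44 CPM against 0.367 to 1.01 CPM (1.78 ± 0.25, adjusted p = 5.33e-06). With total-count scaling 3 genes of the list were lower and 3 were higher, and in the Btnl2-KO libraries, where the values of Cd8a and Itgae were 0.28 and 0.014, 1 was lower and the median was 0.28.

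Mast cells were seen through few genes, since 4 of 10 passed the filter. The proteases Mcpt1 and Mcpt2, which belong to mast cells within the mucosa, were lower in tissue with TMM, and the factor Gata2 was higher. Mcpt1 was at 1.77 to 4.64 CPM in 6 tissue libraries and 16.7 CPM in 964946, against 3.65 to 40.9 CPM in IECs (-1.45 ± 0.56, adjusted p = 0.0276). The Mcpt1 call was lost with upper-quartile (-1.18), total-count (-0.82) and pan-epithelial scaling (-0.96), against jejunal (-1.25) or duodenal IECs alone (-0.29), when any of tissue libraries 964947, 964948, 964949 or 964951 was left out, and without the ileal library 1003488 (-1.01, adjusted p = 0.0739), and without the 3 tissue libraries the value was -2.19. Mcpt2 was at 0.786 to 6.11 CPM in tissue and 1.49 to 14.7 CPM in IECs (-1.52 ± 0.53, adjusted p = 0.0159), and its call was lost with total-count (-0.88) and pan-epithelial scaling (-1.05) and against jejunal (-1.29) or duodenal IECs alone (-0.45). Gata2 was at 0.903 to 2.97 CPM against 0 to 0.277 CPM (4.47 ± 0.44, adjusted p = 8.31e-08). Il1rl1, the IL-33 receptor, was at 3.98 to 12.9 CPM in 6 tissue libraries and 117 CPM in 964946, against 0.184 to 0.721 CPM in IECs (5.75 ± 0.85, adjusted p = 1.57e-05, and 4.23 without 964946). Siglecf, a lectin of eosinophils and tuft cells, was at 2.08 to 7.87 CPM in 6 tissue libraries and 24.1 CPM in 964946, against 0.552 to 2.33 CPM in IECs (2.84 ± 0.49, adjusted p = 5.40e-05, and 2.31 without the 3 tissue libraries).

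Wall transcripts in IECs were compared between IEC libraries. Over whole lists the IEC median was 282 CPM beside 5447 CPM in tissue for muscle filaments and 207 beside 1288 CPM for excitation genes. Most of these 2 sums in IECs came from Tpm1 (IEC median 257 CPM) and Mylk (200 CPM), whose differences were smaller. For structural neuronal genes the IEC median was 2.28 beside 82.6 CPM. To compare libraries, the 104 of 155 wall genes whose IEC mean was below 1/50 of the tissue mean were taken, a limit that was set after the values were seen and that keeps the levels in IECs low by choice. Of these, 19 had no count in any IEC library. The other 85 summed to 56.6 CPM in the ileal library 1003488 and to 5.45 to 11.3 CPM in the other 7. Library 1003488 was the highest of the 8 IEC libraries for 59 of the 85 genes, and it was the one IEC library with counts of Flnc, Jph2, Chrm2 and Myocd. Against ileal IECs alone the log2 fold changes of Myh11 and Jph2 were 10.98 and 5.48.

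Epithelial genes were not uniformly lower in tissue, where 26.6% of all genes were called lower and 32.5% higher. Of 16 pan-epithelial genes, 7 were lower, 1 was higher and 8 were not called, with summed levels of 7706 to 14258 CPM in tissue and 13088 to 17725 CPM in IECs. The median log2 fold change of the list was -0.39 with TMM but 0.31 with total-count scaling, under which 6 genes were higher and 1 was lower. Epcam, the epithelial adhesion molecule, was at 790 to 1668 CPM in tissue (median 1154) and 817 to 1250 CPM in IECs (median 1118), 0.18 ± 0.17 on the log2 scale (adjusted p = 0.343), and 0.85 with total-count scaling, where it was called higher. Cdh1 (E-cadherin) was at 538 to 752 CPM (median 674) against 987 to 1637 CPM (median 1529), -1.18 ± 0.13 (adjusted p = 3.07e-07), with no overlap. Its call was lost with total-count scaling, where the fold change was below 1.5 (-0.49). Hnf4a, a transcription factor of enterocytes, was at 573 to 754 CPM (median 693) against 1142 to 1280 CPM (median 1229), -0.85 ± 0.09 (adjusted p = 3.27e-07), and did not pass the test with total-count scaling (-0.15). Krt20, a keratin of the villus, was at 229 to 1166 CPM (median 947) against 261 to 564 CPM (median 398), 0.98 ± 0.30 (adjusted p = 0.00745), and was not called against ileal IECs alone (0.55, adjusted p = 0.301).

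Cell cycle genes were lower in tissue. All 16 cell cycle genes were lower, beside 26.6% of all genes. Their median log2 fold change was -1.44, and 12 of them remained lower with total-count scaling. Mcm3, a subunit of the replicative helicase, was at 21.5 to 40.1 CPM in tissue (median 34.5) and 105 to 199 CPM in IECs (median 146), a log2 fold change of -2.24 ± 0.17 (adjusted p = 3.51e-09). Mki67, which coats mitotic chromosomes, was at 105 to 290 CPM (median 214) against 52.4 to 1140 CPM (median 713), -1.91 ± 0.44 (adjusted p = 0.000947), the one gene of the list whose groups overlapped. Among 11 crypt stem cell genes 6 were lower and none was higher, beside 26.6% and 32.5% of all genes. With total-count scaling 2 of them were lower and 3 were higher. Olfm4, a secreted glycoprotein of crypt base cells, was at 94.8 to 614 CPM (median 304) against 1354 to 3172 CPM (median 2314), -2.68 ± 0.32 (adjusted p = 1.02e-06). Lgr5, the R-spondin receptor of stem cells, was at 11.2 to 26.2 CPM (median 23.1) against 17.6 to 40.9 CPM (median 28.5), a log2 fold change of -0.34 ± 0.19 (adjusted p = 0.110) that turned to 0.38 with total-count scaling and 0.18 with pan-epithelial scaling.

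Counts for the secretory lineages stand beside 32.5% of all genes called higher in tissue and 26.6% called lower. The share of goblet cell genes called higher lay near that of all genes. All 8 tuft cell genes tested were higher in tissue (6 of them without the 3 tissue libraries, and 3 against duodenal IECs alone), with a summed level of 42.5 to 269 CPM in tissue and 24.3 to 68.1 CPM in IECs. Il17rb, the IL-25 receptor, was at 2.49 to 10.3 CPM (median 4.95) against 0.555 to 1.16 CPM (median 0.838), a log2 fold change of 2.75 ± 0.29 (adjusted p = 1.59e-07), with no overlap. Trpm5, the cation channel of tuft cells, was at 6.54 to 65.4 CPM against 4.51 to 17.3 CPM (1.34 ± 0.46, adjusted p = 0.0147), and was not called without the 3 tissue libraries (0.73, adjusted p = 0.0715). Of 9 goblet cell genes 3 were higher, 1 was lower (Fcgbp, -1.31) and 5 were not called, with overlapping sums of 7300 to 22604 CPM in tissue and 10359 to 23766 CPM in IECs, and 8 were called higher with total-count scaling but 1 against ileal IECs alone. Spink4, a protease inhibitor of goblet cells, was at 226 to 806 CPM in 6 tissue libraries and 2376 CPM in 964946 against 74.5 to 155 CPM (2.66 ± 0.47, adjusted p = 7.92e-05, 2.02 without that library and 1.73 without the 3). Of 6 Paneth cell genes 3 were higher (Defa24, Defa17 and Ang4) and 3 were not called (Lyz1 at -0.15, Mmp7 at -0.41 and Itln1 at -0.13), while without the 3 tissue libraries 2 were higher and 2 lower. The defensin Defa24, which shares sequence with other defensins so that reads may be divided among copies, was at 1761 to 8776 CPM against 616 to 2041 CPM (1.99 ± 0.36, adjusted p = 8.74e-05). The antimicrobial ribonuclease Ang4 was at 259 to 2739 CPM (median 411) against 186 to 499 CPM (1.64 ± 0.53, adjusted p = 0.0107), and 0.34 without the 3 tissue libraries (adjusted p = 0.355). Of 15 enteroendocrine genes 8 were lower, including the fate factor Neurog3 at 0.531 to 1.06 CPM against 1.35 to 7.19 CPM (-2.37 ± 0.30, adjusted p = 1.57e-06), while against ileal IECs alone 1 was lower, and with total-count scaling 3 were lower and 5 higher.

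Most tissue libraries had the segment genes of the distal small intestine. Fabp6, the ileal bile acid-binding protein, was at 927 to 2127 CPM in 6 tissue libraries and 81.8 CPM in 964950, against 733 to 772 CPM in ileal, 5.48 to 25.5 CPM in jejunal and 0.428 to 8.62 CPM in duodenal IECs. Gata4, a transcription factor of proximal enterocytes, was at 0.132 to 1.81 CPM in 5 tissue libraries, 11.9 CPM in 964952 and 64.6 CPM in 964950, against 37.8 to 45.9 CPM in ileal and 149 to 285 CPM in the other IECs. Lactase (Lct) was at 315 CPM in 964950 and 0.309 to 6.46 CPM in the other 6, against 52.9 to 53.7 CPM in ileal IECs. The 5 tissue libraries thus lay below ileal IECs in Gata4 and above them in Fabp6. The distal list had 7 of 10 genes higher in tissue and the proximal list 5 of 9 lower, beside 32.5% of all genes called higher and 26.6% called lower. Against ileal IECs alone, 1 distal gene was higher and 1 proximal gene was lower. Mttp, which loads fat onto chylomicrons, was at 174 to 646 CPM in tissue and 686 to 3461 CPM in IECs (-2.33 ± 0.36, adjusted p = 1.97e-05), and -1.24 against ileal IECs alone (adjusted p = 0.0119).

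**Figure D4:**
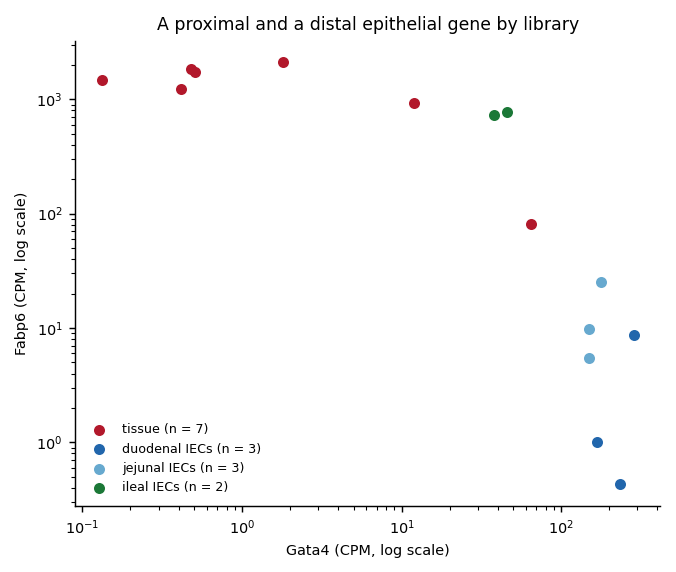
Level of Gata4 (x axis, CPM, log scale) and Fabp6 (y axis, CPM, log scale) in each library, coloured by group. Of the 7 tissue libraries 5 lie at 0.132 to 1.81 CPM of Gata4 and 1235 to 2127 CPM of Fabp6, and library 964950, with 64.6 and 81.8 CPM, lies between the ileal IECs and those of the other segments in both genes.

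The 10 genes with the largest decreases in tissue were named by a rule of size. Dmbt1, a scavenger glycoprotein of mucosal defence, was at 476 to 2556 CPM in tissue (median 1434) and 14630 to 27774 CPM in IECs (median 20492), a log2 fold change of -3.80 ± 0.31 (adjusted p = 7.98e-09). Cps1, the urea cycle enzyme that enterocytes share with liver, was at 379 to 1109 CPM (median 642) against 3119 to 6416 CPM (median 4743), -2.89 ± 0.24 (adjusted p = 1.03e-08). The membrane mucin Muc4 was at 31.3 to 84.0 CPM (median 60.4) against 208 to 544 CPM (median 414), -2.82 ± 0.24 (adjusted p = 1.73e-08). All 3 were lower than in the IECs of each segment. Reg1, a secreted lectin, had the largest decrease at -6.15 ± 1.06 (adjusted p = 7.72e-05), with 0.574 to 1.49 CPM in tissue and 1.63 to 234 CPM in IECs, but -0.76 against ileal IECs alone (adjusted p = 0.0376). The carboxylesterase Ces2g followed the same order, at -4.12 over all IECs and -0.67 against ileal IECs alone (adjusted p = 0.0773). The others were Snord22, a small nucleolar RNA within a host gene (-6.10 ± 0.74, adjusted p = 1.80e-06, and -5.39 without 1003488), Gm21992 (-4.86 ± 0.77, adjusted p = 3.26e-05, and -5.74 without 964952), the galactosyltransferase B3galt5 (-3.98 ± 0.48, adjusted p = 1.30e-06), Syna (-3.29 ± 0.39, adjusted p = 9.31e-07) and mt-Rnr2, the large ribosomal RNA of mitochondria (-2.85 ± 0.33, adjusted p = 7.32e-07).

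Tissue libraries also varied among themselves, to a different extent from list to list. The highest tissue library exceeded the lowest 1.51-fold for the fibroblast list, 1.61-fold for structural neuronal genes, 1.59-fold for blood endothelium, 1.72-fold for lymphatic endothelium, 1.68-fold for transmitter genes, 1.63-fold for enteroendocrine cells and 2.27-fold for muscle filaments. The same ratio was 7.72 for B cells and follicles, 6.33 for tuft cells, 5.81 for enterocytes, 5.04 for innate lymphoid cells and 4.71 for mast cells. Library 964946 was highest for muscle filaments, tuft cells, mast cells, innate lymphoid cells and the eosinophil and neutrophil list, and library 964952 was highest for fibroblasts, structural neuronal genes and glia. The innate lymphoid sum of 964946 was mostly Il1rl1 (117 of 153 CPM), and its eosinophil and neutrophil sum was mostly Siglecf (24.1 of 32.9 CPM). Acinar genes of the pancreas, an organ that lies against the duodenum, summed to 383 CPM in 964946 and 243 CPM in 964952 against 37.9 to 68.3 CPM in the other 5 tissue libraries and 29.0 to 101 CPM in IECs. Of the 16 acinar genes 5 passed the filter and 4 of these were called higher in tissue, beside 32.5% of all genes, and 0 were called lower. The number called higher was 2 without the 3 tissue libraries, 2 against ileal or jejunal and 0 against duodenal IECs alone. When the filter on low counts was lifted, 4 genes of the list were called lower in tissue. The part of acinar genes in the results above was not tested.

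**Figure D5:**
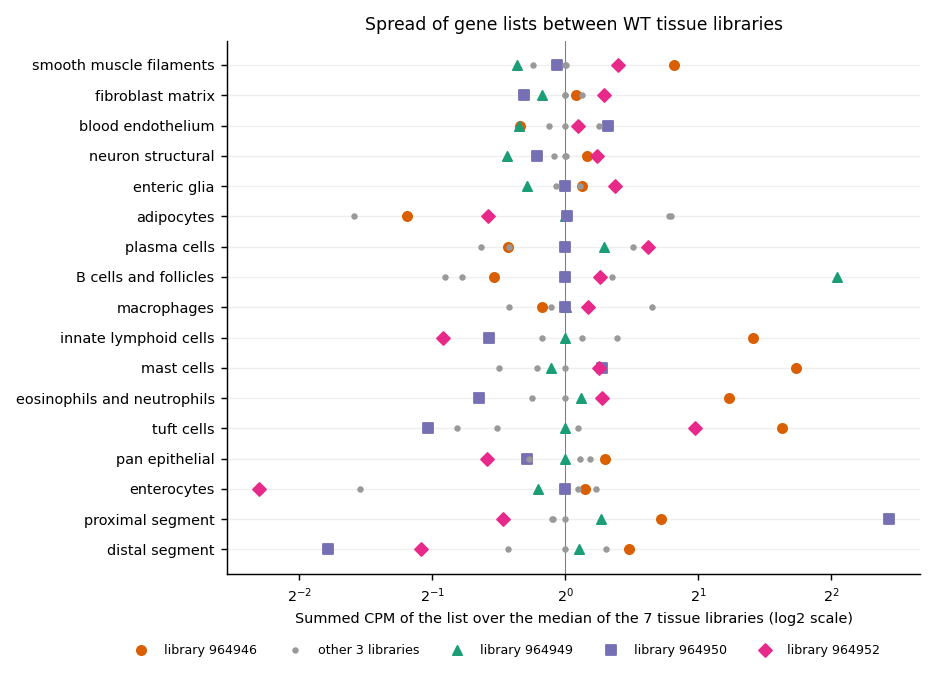
Summed level of each list in each of the 7 tissue libraries divided by the median of the 7 (x axis, log2 scale), with libraries 964946, 964949, 964950 and 964952 marked. The fibroblast, blood endothelium and structural neuronal lists have ratios of highest to lowest of 1.51, 1.59 and 1.61, and the tuft, mast and innate lymphoid lists are highest in 964946. The innate lymphoid sum of 964946 is mostly Il1rl1 (117 of 153 CPM).

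In the Btnl2-KO libraries of the same kinds, prepared in the same 2 tables, the comparison gave 4936 genes higher in tissue and 3379 lower. Of the genes called higher in WT libraries, 4430 could be tested there and 4157 (93.8%) were called higher again, as were 2937 of 3841 (76.5%) of those called lower. Of the wall genes, 136 of 144 were higher and 0 were lower. The enterocyte list had 10 genes higher and 1 lower in the Btnl2-KO libraries, against 1 and 6 in WT. Its median log2 fold change was 1.27 in the Btnl2-KO libraries and -0.20 in WT. The pan-epithelial median was 0.12 and -0.39. Of all genes tested in WT, 32.5% were called higher and 26.6% lower. These libraries share the tables and the age labels of the WT libraries, so the repeat does not separate the kind of sample from the batch.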

How the data were processed

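RNA-sequencing of WT small intestine tissue and WT IECs was analysed. According to the labels, total RNA was purified with a magnetic bead kit and made into stranded mRNA libraries, whereas the methods of the study name a low-input kit, and which kit served these libraries is not settled. The authors mapped reads to a customized mouse genome and deposited expected counts per gene estimated by RSEM from sense-strand exonic reads (16.9% of tissue and 14.8% of IEC values were not whole). The submitters' processing notes name GRCm38.

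Expected counts were rounded. Genes with at least 10 counts in at least 7 of the 15 libraries were tested with edgeR 4.0.16 in R 4.3.3 (TMM, robust quasi-likelihood fit, tissue against all IECs, and against each segment in a fit with 4 groups), at an adjusted p below 0.05 and a fold change above 1.5. Of 24475 identifiers 100 had no symbol. Identifier 100861531 and the others without a symbol stayed in library sizes, and leaving them out was an alternative, as were other scalings, DESeq2 1.42.0, limma 3.58.1, other filters and leaving out each library. The code was tested on simulated data. No replicate pair agreed within sampling noise (chi-square per degree of freedom 9.97 or more).

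Members and the 40 gene lists (427 genes, of which 419 were in the table) were chosen with earlier results of these data known. Named genes were list genes and up to 10 genes per direction with the largest fold change among those called, whose groups did not overlap and whose mean was at least 20 CPM in the higher group. Counting intervals and floors cover counting error only. Figures were drawn with matplotlib 3.10.9. The other libraries of the series were not used here, apart from Btnl2-KO tissue and IECs for a repeat. Results of a few list genes are not reported here.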

Additional observations from a re-analysis of the deposited data

Results flagged for a closer look

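Single tissue libraries lay far from the other 6 in 24 of 172 lists and genes examined by Dixon's criterion, which by chance flags about 1 group in 20. The items are not independent, since genes belong to the lists.

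Library 964946 stood apart most often. It was the highest for Actg2 (1454 CPM, next 694), Tagln (986 CPM, next 594) and Cnn1 (480 CPM, next 265), for Chat, a gene of neurons and tuft cells (3.13 CPM, next 1.44), and for the small heat shock protein Hspb1 (59.0 CPM, next 30.0). It was also the highest for the mast cell list (27.9 CPM, next 10.2) with Mcpt1 (16.7 CPM, next 4.64) and Mcpt2 (6.11 CPM, next 1.64), for the eosinophil and neutrophil list (32.9 CPM, next 17.0) with Siglecf (24.1 CPM, next 7.87), for the innate lymphoid list (153 CPM, next 75.3) with Il1rl1 (117 CPM, next 12.9), and for Spink4 (2376 CPM, next 806). It was the lowest for Ptch1 (15.7 CPM, next 30.0).

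Library 964950 had the highest proximal list (630 CPM, next 192), Gata4 (64.6 CPM, next 11.9), Lct (315 CPM, next 6.46) and Syna (4.25 CPM, next 2.61). Library 964952 had the highest list of niche inhibitors (286 CPM, next 232) and of pericytes (388 CPM, next 303), with Rgs5 at 229 CPM (next 169). Library 964949 had the highest B cell and follicle list (164 CPM, next 50.7) and the lowest Myocd (7.56 CPM, next 10.8). Library 964951 had the highest Csf1r (101 CPM, next 66.1).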

How the results depend on the processing

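Over 132 named genes and 30 settings, 3824 values kept their direction and side of the threshold, 66 lost the call, 40 gained it and 25 changed sign. The numbers of genes called moved by more than 1.5 times under a few settings. Upper-quartile scaling gave 2346 genes lower in tissue (1391 against each segment), total-count scaling gave 7582 higher and 865 lower (6047 and 394 against each segment), and pan-epithelial scaling, chosen after seeing the data, gave 1390 lower (404 against each segment). A fold change above 8 left 1973 and 52 (1654 and 19 against each segment). Among called genes 55.0% were higher, against 62.2% with DESeq2's size factors, 70.6% with the upper quartile, 89.8% with total counts, 82.2% with pan-epithelial scaling and 67% with DESeq2. Leaving out 1 library gave 4618 to 5071 higher and 3138 to 3917 lower, and 3170 to 4050 and 1953 to 2752 against each segment.

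Signs changed for 7 genes, of which Cd8a and Itgae alone had been called. Fbln1 was 0.094 with DESeq2's size factors, 0.24 with the upper quartile, 0.68 with total counts, 0.51 with pan-epithelial scaling, 0.085 with DESeq2, 0.083 without identifiers that have no symbol, 0.15 and 0.062 against ileal and jejunal IECs, 0.30 in Btnl2-KO libraries, and -0.13 to 0.14 when 1 library was left out. Lgr5 was 0.38 with total counts and 0.18 with pan-epithelial scaling. Il33 was -0.064 with limma-voom, -0.068 and -0.0010 against jejunal and duodenal IECs, -0.43 without the 3 tissue libraries and -0.15 to 0.32 when 1 library was left out. Prox1 and Tac1 were -0.42 and -0.43 against ileal IECs, Tac1 was -0.39 in Btnl2-KO libraries, and Cd8a and Itgae were 0.28 and 0.014 there. The cause was not tested. Depth limits values under 0.0188 CPM in IECs. No paired analysis was possible because the library numbers of the groups do not match.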

Other observations

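Immediate-early and heat shock genes respond to handling and stress. Of 20 tested, 10 were higher in tissue and 3 lower, beside 32.5% and 26.6% of all genes. Nr4a1, an orphan nuclear receptor induced within minutes of stimulation, was at 3.91 to 25 CPM in tissue (median 9.50) and 0.245 to 1.2 CPM in IECs (median 0.640), a log2 fold change of 3.99 ± 0.44 (adjusted p = 3.05e-07 by edgeR). Hsp90aa1, the inducible cytosolic chaperone, was at 235 to 379 CPM (median 319) against 415 to 1243 CPM (median 888), -1.49 ± 0.20 (adjusted p = 3.44e-06 by edgeR). Hspb1, a small heat shock protein that muscle also expresses, was at 10.1 to 59.0 CPM against 0 to 0.769 CPM (7.07 ± 0.64, adjusted p = 4.31e-08 by edgeR, and 8.04 without the ileal library 1003488). Against ileal IECs alone 5 of the 20 were higher and 2 lower.

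Further epithelial genes that were higher in tissue were Slc51b, a member of the distal segment list above, and Mep1a. Slc51b, a subunit of the basolateral bile acid transporter, was at 28.5 to 157 CPM in tissue (median 117) and 4.16 to 23.3 CPM in IECs (median 8.60), 3.11 ± 0.43 on the log2 scale (adjusted p = 6.54e-06 by edgeR), and 2.29 against ileal IECs alone (adjusted p = 0.00187 by edgeR). Mep1a, a brush border metalloprotease, was at 152 to 1009 CPM (median 572) against 25.3 to 209 CPM (median 48.1), 2.79 ± 0.54 (adjusted p = 0.000214 by edgeR), and 1.55 against ileal IECs alone (adjusted p = 0.0511 by edgeR).

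Red blood cell genes summed to 19.0 to 67.9 CPM in tissue and 2.10 to 29.7 CPM in IECs, and 3 of 4 tested were higher in tissue, beside 32.5% of all genes. The groups overlapped in every gene tested. The number higher was 1 against ileal IECs alone and 1 in the Btnl2-KO libraries.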
